A study of Mus musculus with 4 samples.

Results

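Nodal, Gdf3, Tdgf1, Acvr1b, Acvr2a, Acvr2b, Lefty1, Lefty2 and Foxh1 are the ligands, co-receptor, receptors, antagonists and nuclear partner of the Nodal pathway described here. Their probes were taken by name, as every non-control probe whose gene name in the array annotation is one of these 9 symbols. That rule uses no measured value, but the 9 symbols themselves were chosen with earlier results of these data known. All 9 genes were on the array, with 14 probes of the 54963 that had a value on all arrays and 9 of 35158 genes. Of the genes, 5 genes had 1 probe and 4 had 2 or 3.

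Nodal is a secreted ligand of the transforming growth factor beta family that patterns the early mouse embryo. It binds a complex of a type I receptor (Acvr1b, also called Alk4), a type II receptor (Acvr2a or Acvr2b) and the membrane-anchored co-receptor Tdgf1 (Cripto), and the receptors phosphorylate Smad2 and Smad3, which enter the nucleus with Smad4 and act on genes together with the forkhead protein Foxh1. Lefty1 and Lefty2 are secreted antagonists that are themselves target genes of the pathway, so that signalling induces its own inhibitors, and the pathway is known to be active in the pluripotent cells of the early embryo and in their cultured counterparts.

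Total RNA of 4 mouse cell populations was labelled with Cy3 and hybridized to 1-colour Agilent arrays, 1 array for each population. The populations were the lines iPS-OSH and iPS-J (both given in the labels as iPS cells, somatic cells reprogrammed to pluripotency, of C57BL/6 background), ESC (embryonic stem cells of 129SV background) and MEF (embryonic fibroblasts of C57BL/6 background). The pluripotent lines were grown in DMEM with serum and the cytokine LIF and MEF in DMEM with serum and no LIF listed. The factors and vector that made the iPS lines, their clones and passages, and the use of feeder cells are not given in the sources used here. ESC differed from the other populations in strain as well as in origin, and strain and origin cannot be told apart in any difference from ESC.

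Since each population was measured on 1 array, the spread between cultures is unknown, and no test was made and no p computed. Signals are the scanner software's processed signals, and differences are on the log2 scale after each array was scaled to its 75th percentile, which stood at 1534 for iPS-OSH, 1174 for iPS-J and 1275 for ESC, against 1706 for MEF. Of the non-control spots, 67.0% to 81.7% were well above background. Spot noise, from probes printed 10 times on each array, gave a difference between arrays an SD of 0.21 to 0.39, and it covers neither labelling nor culture. A gene is represented by its brightest probe, and a difference of 2-fold, which is 1 on the log2 scale, was the size counted as higher or lower. MEF and ESC were each scanned in a session of their own and both iPS arrays together in another, so session and population cannot be told apart in any comparison that involves MEF or ESC. The comparisons share arrays, so those against MEF are not independent of each other, nor are those against ESC.

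The labels were set against marker lists. All 10 pluripotency markers, each by its brightest probe, were at least 2-fold higher on each pluripotent array than on MEF. Among them were Pou5f1 (10442, 11868 and 7401 on iPS-OSH, iPS-J and ESC, against 83.5 on MEF) and Nanog (80560, 64738 and 86762, against 183). The other Nanog probe went the opposite way, with -1.09, -1.06 and -1.97 relative to MEF. The other probes of Esrrb and Tdh were higher than on MEF, and those of Sall4 went both ways. Of 12 fibroblast markers, 12 were lower on the iPS-J array and 12 on the ESC array than on MEF, but only 9 were lower on the iPS-OSH array and 1 was higher. Of all genes, 12.5%, 16.6% and 21.8% were higher than on MEF on iPS-OSH, iPS-J and ESC, and 24.1%, 23.7% and 16.8% lower. The summed scaled signal of the fibroblast list was 316 on iPS-OSH, 61.4 on iPS-J and 46.6 on ESC, against 1078 on MEF. All 12 of its genes were well above background on iPS-OSH, ESC and MEF, and 11 on iPS-J. The extraembryonic endoderm list summed to 10.5 on iPS-OSH, 157 on iPS-J and 21.7 on ESC, against 10.7 on MEF. In such bulk RNA, fewer cells of a type and less RNA per cell cannot be told apart.

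For Gdf3 and Tdgf1 the size of the difference turns on the choice of probe, and their probes are shown with coordinates of the mm9 assembly, which the file headers name. Gdf3 has probe 1 at chr6:122556340-122556399 and probe 2 at chr6:122555421-122555480, both on the minus strand, and probe 2 lies 919 bases further downstream. Probe 1 of Gdf3 is given whole, and for the others a stretch of 30 of the 60 bases is given. Capitals mark the hexamer AATAAA, a polyadenylation signal, in Gdf3 probe 2, and an unbroken run of purines in Tdgf1 probe 2.
Gdf3 probe 1: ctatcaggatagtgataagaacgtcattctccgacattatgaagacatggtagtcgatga
Gdf3 probe 2, stretch: tggggttttcttAATAAAtttacttcaact
Tdgf1 probe 1, stretch: tgatgctcacagtgaatccctaatgttacc
Tdgf1 probe 2, stretch: GGGGAGAAAAAAGAGAGAGAGAGAAGAAAA
Tdgf1 probe 1 lies at chr9:110843099-110843158, probe 2 at chr9:110842722-110842781 and probe 3 at chr9:110842866-110842925, all on the minus strand. The hexamer AATAAA occurs, in the sense of the probe, in 10.1% of all 55681 probes.

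Of the 9 genes, 8 had their lowest scaled signal on the MEF array, and Acvr2a had its highest there. On the iPS-OSH array 7 genes were at least 2-fold higher than on MEF and 1 was lower, where 12.5% of all genes compared were higher and 24.1% lower. On the iPS-J array 8 genes were higher than on MEF and 1 was lower, where the shares of all genes were 16.6% and 23.7%. On the ESC array 8 genes were higher than on MEF and 1 was lower, where the shares of all genes were 21.8% and 16.8%. The median difference of the 9 genes from MEF was 4.16 for iPS-OSH, 4.59 for iPS-J and 4.22 for ESC, beside medians over all genes of -0.34, -0.20 and 0.10. Scaling on the spike-in probes moved the medians over all genes to -0.44, -0.54 and -0.36 and those of the 9 genes to 4.06, 4.25 and 3.73.

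**Figure D1:**
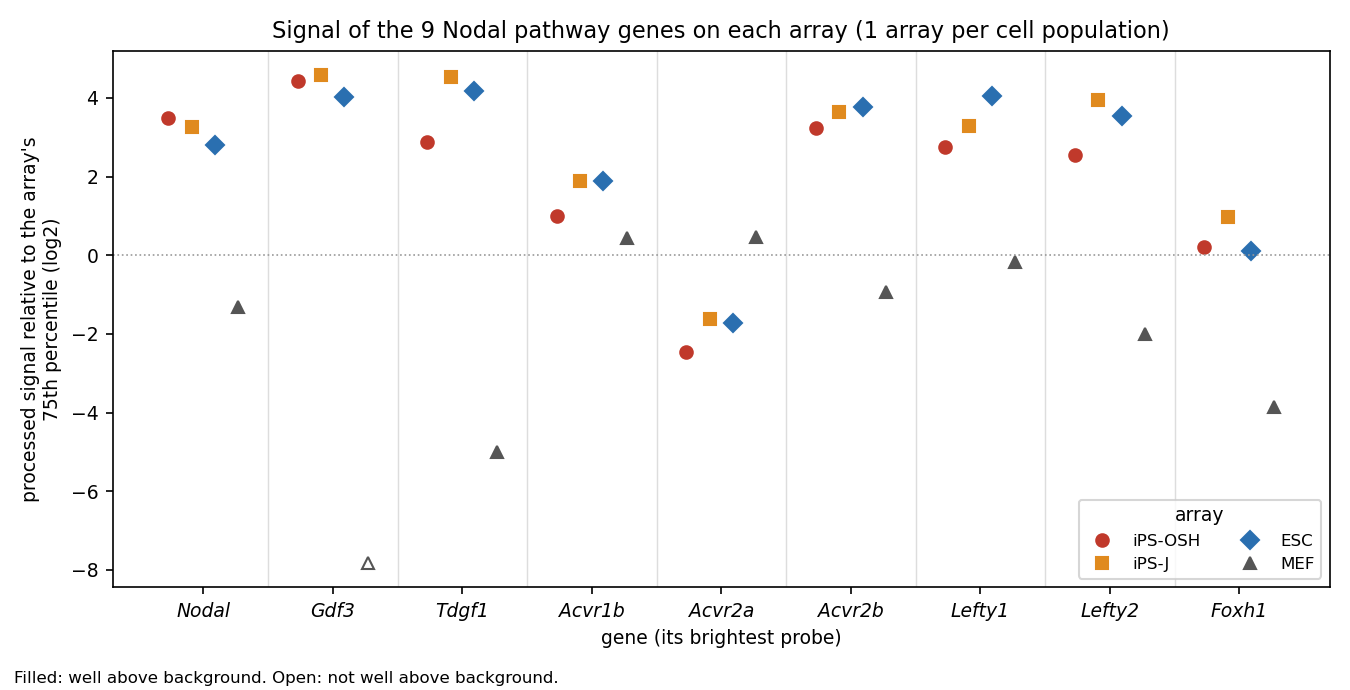
Processed signal of each of the 9 genes relative to the array's 75th percentile (log2, vertical axis), 1 point for each array (iPS-OSH, iPS-J, ESC and MEF from left to right in each gene), from the gene's brightest probe. Acvr2a sits highest on the MEF array and the other 8 genes sit lowest there, and levels of different genes come from different probes and are not comparable.

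Nodal, the ligand that gives the pathway its name, gave a processed signal of 17387 on iPS-OSH, 11353 on iPS-J and 8848 on ESC, against 685 on MEF (probe at chr10:60887790-60887849, plus strand). All pluripotent arrays were far above the MEF array, on which the probe was still well above background. The difference from MEF was 4.82 for iPS-OSH (28.2-fold), 4.59 for iPS-J (24.1-fold) and 4.11 for ESC (17.3-fold). Its order was iPS-OSH, iPS-J, ESC and MEF. The step of 0.23 between iPS-OSH and iPS-J was close to the spot SD of 0.21, and that of 0.48 between iPS-J and ESC lay above the spot SD of 0.29. The step between iPS-J and ESC depended on the processing, at 0.21 with quantile normalization and 0.16 without the multiplicative detrend.

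Gdf3 is a ligand of the same family that also uses Tdgf1 as co-receptor and is made by pluripotent cells. Probe 1 of Gdf3 gave 33226 on iPS-OSH, 28044 on iPS-J and 20786 on ESC, and on MEF it gave 7.54 and was not well above background. The gene was therefore at least 1087-fold higher on iPS-OSH than on MEF, at least 1199-fold on iPS-J and at least 818-fold on ESC, bounds taken against the lowest signal of a probe well above background on the MEF array, 34.0. That signal is the mean of a probe with 6 of its 10 spots so called, and against the lowest single spot so called, 37.8, each bound over MEF is lower by 0.15 on the log2 scale. Probe 2 of Gdf3, which holds the AATAAA hexamer shown above, read 3402, 2016 and 3251 on iPS-OSH, iPS-J and ESC, against 1786 on MEF. Its differences from MEF were 1.08, 0.71 and 1.28, so the probes agreed in direction and differed in size by far more than the spot noise. Taking the median of both probes gave Gdf3 differences of at least 5.58, 5.47 and 5.48, since probe 1 enters as a bound.

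Tdgf1, the membrane-anchored co-receptor that Nodal and Gdf3 need, gave 11197 on iPS-OSH, 27253 on iPS-J and 23175 on ESC, against 52.9 on MEF, from probe 1. The MEF signal was called well above background but lay close to the lowest single spot so called, 37.8, and the iPS-OSH signal was the lowest of the pluripotent arrays. The difference from MEF was 7.88 for iPS-OSH (235-fold), 9.55 for iPS-J (749-fold) and 9.20 for ESC (586-fold). Where detection was set by the ERCC control probes in place of the software's call, the MEF signal counted as undetected and the differences became bounds of 5.50, 7.17 and 6.82. Probe 3 of Tdgf1 read 3922, 8044 and 7912, against 8.40 on MEF, where it was not well above background, which puts the gene at least 128-fold, 344-fold and 312-fold higher against the same 34.0. Probe 2 of Tdgf1 read 3045, 6226 and 5011, against 690 on MEF, and its differences were only 2.30, 3.71 and 3.28.

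The purine run of Tdgf1 probe 2 spans 31 bases, and 76 of 54963 probes have a run as long. Those 76 probes had a median scaled log2 signal of 3.69, 3.71 and 4.57 on iPS-OSH, iPS-J and ESC, against 3.08 on MEF, where the medians over all probes were -3.21, -3.23 and -2.60, against -3.01. Of them 98.7% were well above background on MEF, beside 81.3% of all probes. Probes with such a run were thus bright on every array, and whether the run accounts for the MEF signal of Tdgf1 probe 2 was not tested. All 3 probes of Tdgf1 gave the same order of arrays, iPS-J, ESC, iPS-OSH and MEF.

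**Figure D2:**
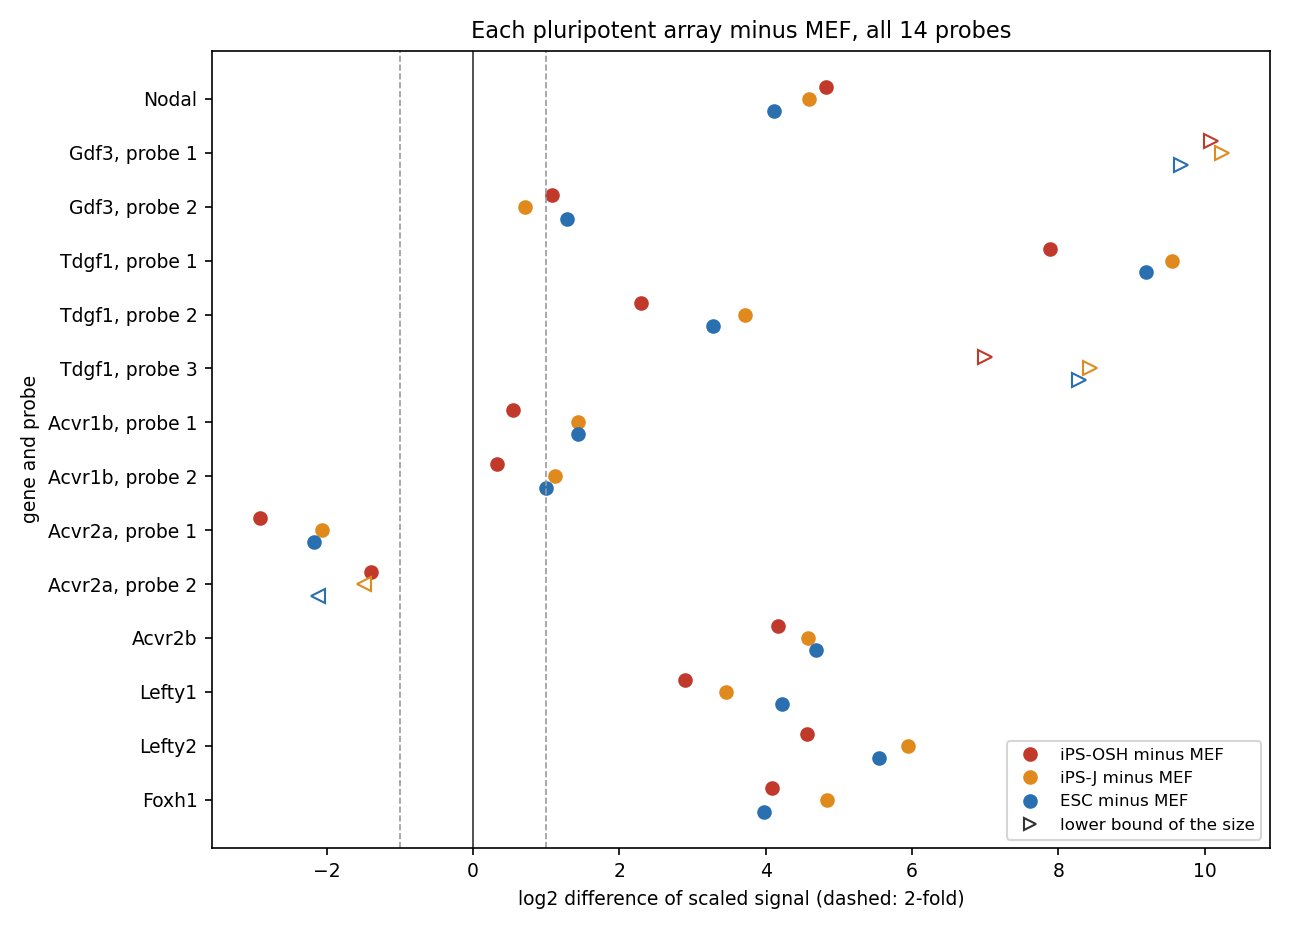
Log2 difference of scaled signal of each pluripotent array minus MEF (horizontal axis) for the 14 probes (top to bottom), with open triangles for lower bounds of the size and dashed lines at 2-fold. Gdf3 probe 1 and Tdgf1 probes 1 and 3 lie farthest right, Gdf3 probe 2 and Tdgf1 probe 2 lie nearer to 0, and both Acvr2a probes lie left of 0.

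The receptors differed from each other. Acvr1b, the type I receptor, gave 3073 on iPS-OSH, 4350 on iPS-J and 4697 on ESC, against 2331 on MEF. The MEF array was again the lowest, but closer to the others than for any of the remaining genes, with differences from MEF of 0.55 for iPS-OSH (1.47-fold), 1.44 for iPS-J (2.71-fold) and 1.43 for ESC (2.70-fold). Its other probe gave 0.32 for iPS-OSH and 1.12 for iPS-J and lay at the 2-fold threshold for ESC. The spot of the brighter probe carried the software's background outlier mark on iPS-OSH, ESC and MEF.

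Acvr2a and Acvr2b are type II receptors with overlapping roles, and they lay on opposite sides of MEF. Acvr2a gave 281 on iPS-OSH, 384 on iPS-J and 387 on ESC, against 2346 on MEF. All pluripotent arrays lay below the MEF array. The log2 difference from MEF was -2.91 for iPS-OSH (7.50-fold lower), -2.07 for iPS-J (4.20-fold lower) and -2.18 for ESC (4.53-fold lower). Its other probe read 70.2 on iPS-OSH, 50.2 on iPS-J and 29.0 on ESC, against 205 on MEF, and was not well above background on iPS-J and ESC. That probe was 2.63-fold lower on iPS-OSH, at least 2.81-fold lower on iPS-J and at least 4.36-fold lower on ESC.

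Acvr2b gave 14384 on iPS-OSH, 14585 on iPS-J and 17291 on ESC, against 893 on MEF (probe at chr9:119342560-119342619, plus strand). The pluripotent arrays lay close together and far above MEF, with differences of 4.16, 4.57 and 4.69, or 17.9-fold, 23.7-fold and 25.9-fold. A further probe carries a name that RefSeq lists as a synonym of Acvr2b (4930516B21Rik) and was not counted among the 9 genes. It read 47.3 on iPS-OSH, 21.3 on iPS-J and 62.6 on ESC, against 23.4 on MEF, and was well above background on iPS-OSH and ESC only.

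The antagonists Lefty1 and Lefty2 are encoded by neighbouring genes on chromosome 1 and are alike in sequence. Their probes share no run longer than 5 bases, and whether each probe also binds RNA of the other gene was not tested. The opening 30 bases of each probe are given for comparison.
Lefty1 probe, stretch: ctttcatgcaaatctgaagtgctcattata
Lefty2 probe, stretch: aagggtgtacctgagtctttctggccattg
Lefty1 (chr1:182868137-182868196, plus strand) gave 10222 on iPS-OSH, 11454 on iPS-J and 21100 on ESC, against 1519 on MEF. The ESC array was the highest and MEF the lowest. The difference from MEF was 2.90 for iPS-OSH (7.49-fold), 3.45 for iPS-J (11.0-fold) and 4.22 for ESC (18.6-fold).

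Lefty2 (chr1:182828893-182828952, plus strand) gave 9074 on iPS-OSH, 18025 on iPS-J and 14938 on ESC, against 427 on MEF. The iPS-J array was the highest, and iPS-OSH was the lowest of the pluripotent arrays. The difference from MEF was 4.56 for iPS-OSH (23.6-fold), 5.94 for iPS-J (61.3-fold) and 5.55 for ESC (46.8-fold).

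Foxh1, the forkhead partner of Smad2 and Smad3, gave 1790 on iPS-OSH, 2303 on iPS-J and 1379 on ESC, against 118 on MEF. All pluripotent arrays lay above MEF, by 4.08 for iPS-OSH (16.9-fold), 4.83 for iPS-J (28.4-fold) and 3.97 for ESC (15.6-fold). With detection set by the ERCC control probes these became bounds of 2.86, 3.61 and 2.75. Its spot on iPS-J carried the background outlier mark.

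The pluripotent arrays lay closer to each other than to MEF for all of the 9 genes except Acvr1b, whose differences of -0.88 for iPS-OSH minus ESC and -0.89 for iPS-OSH minus iPS-J exceeded in size its 0.55 for iPS-OSH minus MEF. On the iPS-OSH array none of the 9 genes was at least 2-fold higher than on ESC and 2 were lower, Tdgf1 and Lefty1, where 8.64% of all genes were higher and 26.8% lower. On the iPS-J array none was 2-fold higher or lower than on ESC, where 5.97% of all genes were higher and 22.9% lower. On the iPS-OSH array none was higher than on iPS-J and 2 were lower, Tdgf1 and Lefty2, where 7.56% of all genes were higher and 7.96% lower. The medians of the 9 genes were -0.73 for iPS-OSH minus ESC, 0.35 for iPS-J minus ESC and -0.75 for iPS-OSH minus iPS-J, beside -0.29, -0.15 and -0.03 over all genes.

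Tdgf1 differed most between the pluripotent arrays. Its difference was -1.32 for iPS-OSH minus ESC (2.49-fold lower) and -1.67 for iPS-OSH minus iPS-J (3.18-fold lower), beside spot SDs of 0.28 and 0.21. The difference of iPS-OSH minus ESC fell short of 2-fold under 3 of 14 alternative settings, at -0.85 with normexp background correction, -0.91 without the multiplicative detrend and -0.93 with spike-in scaling. Probe 2 of Tdgf1 gave -0.99 and -1.42 for the same comparisons and probe 3 gave -1.28 and -1.42, so all 3 probes had the sign of a lower iPS-OSH signal. For iPS-J minus ESC the probes gave 0.35, 0.43 and 0.14, with signals that exceeded those of iPS-OSH on both arrays.

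Lefty1 had a difference of -1.31 for iPS-OSH minus ESC (2.48-fold lower), and of -0.76 for iPS-J minus ESC and -0.55 for iPS-OSH minus iPS-J. Lefty2 had a difference of -1.38 for iPS-OSH minus iPS-J (2.59-fold lower), and of -0.99 for iPS-OSH minus ESC and 0.39 for iPS-J minus ESC. For iPS-OSH minus ESC, Lefty1 fell short of 2-fold with spike-in scaling (-0.93), and Lefty2 passed it under some settings, among them normexp (-1.13) and no detrend (-1.19), where Tdgf1 did not. Both antagonists had iPS-OSH lowest of the pluripotent arrays, and the highest was ESC for Lefty1 and iPS-J for Lefty2. The Lefty2 step of 0.39 between iPS-J and ESC was not far above the spot SD of 0.29. It fell to 0.03 without the multiplicative detrend, so that order of iPS-J and ESC for Lefty2 is not settled.

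Nodal, by contrast, had differences of 0.71 for iPS-OSH minus ESC, 0.48 for iPS-J minus ESC and 0.23 for iPS-OSH minus iPS-J. A gap between 2 genes' differences in the same pair of arrays does not move when an array is multiplied by a constant. Such a gap can still move with the multiplicative detrend, which differs from spot to spot. For iPS-OSH minus ESC, Nodal exceeded Lefty1 by 2.02, Tdgf1 by 2.03 and Lefty2 by 1.70. Without the detrend, iPS-OSH minus ESC was 0.52 for Nodal, -1.49 for Lefty1 and -1.19 for Lefty2. The Tdgf1 difference was then smaller, as given above, so the gap between Nodal and Tdgf1 was narrower. For iPS-J minus ESC, Nodal exceeded Lefty1 by 1.24, Tdgf1 by 0.13 and Lefty2 by 0.09.

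Of the 9 genes, 6 had their lowest pluripotent signal on iPS-OSH (Tdgf1, Acvr1b, Acvr2a, Acvr2b, Lefty1 and Lefty2) and 3 on ESC (Nodal, Gdf3 and Foxh1). The smaller differences did not all keep their sign. Foxh1 gave 0.11 for iPS-OSH minus ESC and -0.06 with the percentile taken over probes well above background on all arrays. Acvr2a gave -0.73 for iPS-OSH minus ESC from its brighter probe, and its other probe was higher on iPS-OSH by at least 0.73, so its probes disagreed. Gdf3 gave 0.55 for iPS-J minus ESC from probe 1 and -0.57 from probe 2. For iPS-J minus ESC, Acvr1b (0.01), Acvr2a (0.11) and Acvr2b (-0.13) changed sign under 4, 2 and 1 of 14 alternative settings, and Gdf3 (-0.14) did so for iPS-OSH minus iPS-J under 4.

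The fibroblast and endoderm lists moved between the same arrays. All 12 fibroblast markers were at least 2-fold higher on iPS-OSH than on ESC, with a median difference of 2.62, where 8.64% of all genes were higher. Of the 12, 11 were higher on iPS-OSH than on iPS-J, with a median of 2.53, where 7.56% of all genes were higher. Of 11 extraembryonic endoderm markers compared, 10 were higher on iPS-J than on ESC, with a median of 2.81, where 5.97% of all genes were higher. On iPS-OSH 10 were lower than on iPS-J, with a median of -4.00, where 7.96% of all genes were lower. Between iPS-OSH and ESC, 6 of 11 were lower on iPS-OSH and 1 was higher, where 26.8% of all genes were lower. Pdgfra is on both the fibroblast and the endoderm list and is counted in each. Thy1, a surface protein of fibroblasts, gave 153467 on iPS-OSH and 22518 on iPS-J, against 17861 on ESC, and Gata4, an endoderm transcription factor, gave 718 on iPS-OSH and 11136 on iPS-J, against 823 on ESC. The part of these marker genes' cells in the differences of Tdgf1, Lefty1 and Lefty2 was not tested.

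**Figure D3:**
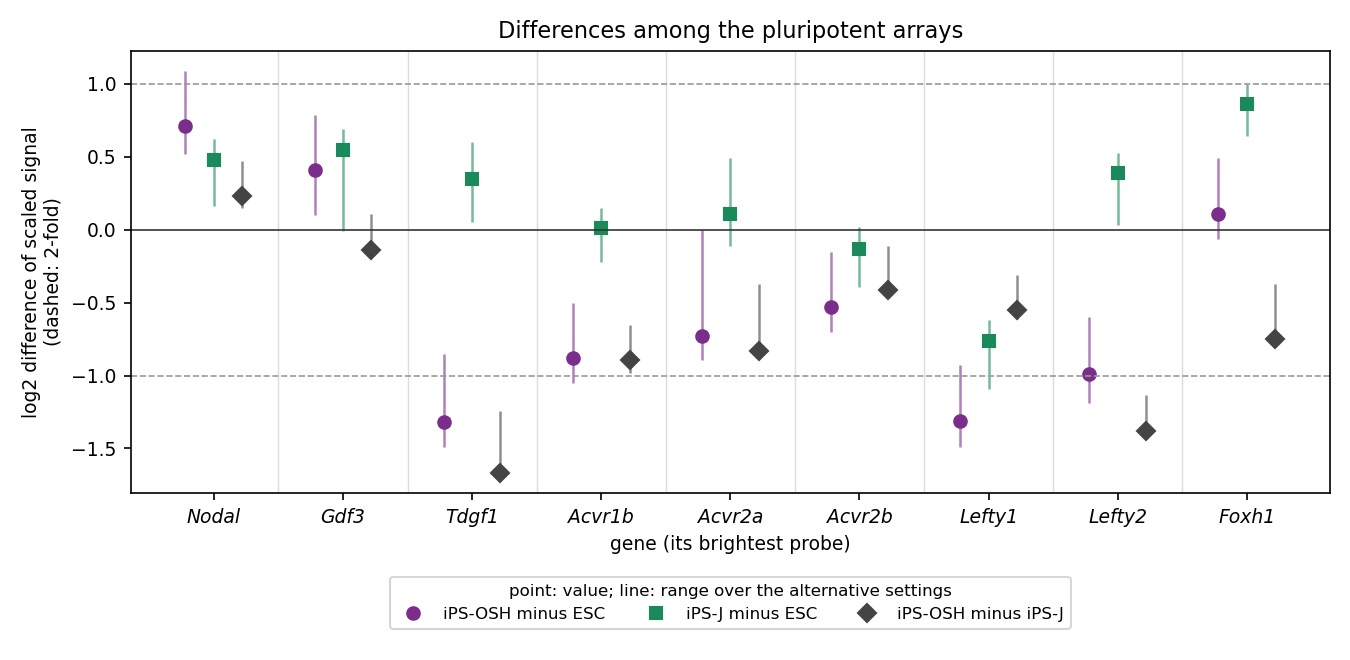
Log2 difference of scaled signal of each of the 9 genes (brightest probe) for iPS-OSH minus ESC, iPS-J minus ESC and iPS-OSH minus iPS-J, with a line for the range over the alternative settings and dashed lines at 2-fold. Tdgf1 and Lefty1 lie below -1 for iPS-OSH minus ESC, Tdgf1 and Lefty2 lie below -1 for iPS-OSH minus iPS-J, and no point lies past 2-fold for iPS-J minus ESC.

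Other genes of the pathway, 39 in all from 5 lists by role, were set beside the 9. Over all genes compared with MEF, 12.5% were higher and 24.1% lower on iPS-OSH. The shares were 16.6% and 23.7% on iPS-J, and 21.8% and 16.8% on ESC. The counts of each of the 5 lists are to be read beside these shares. Of the other ligands, co-receptors and receptors, 5 were compared with MEF, and 1 was higher and 1 lower on iPS-OSH, with 2 higher and 3 lower on iPS-J and likewise on ESC. Cfc1 (Cryptic), the co-receptor related to Tdgf1, read 226 on iPS-OSH, 269 on iPS-J and 332 on ESC, against 23.5 on MEF, where it was not well above background, so it was higher by at least 2.88, 3.52 and 3.71. Inhba, which encodes the activin A subunit, read 46667 on iPS-OSH, 3540 on iPS-J and 2244 on ESC, against 96142 on MEF. Its difference from MEF was -0.89 for iPS-OSH, -4.22 for iPS-J (18.7-fold lower) and -5.00 for ESC (32.0-fold lower), and it was 17.3-fold higher on iPS-OSH than on ESC. Inhbb, the activin B subunit, gave 0.30 on iPS-OSH, -1.05 on iPS-J and -2.01 on ESC relative to MEF and was 4.97-fold higher on iPS-OSH than on ESC. Tgfbr3 (betaglycan), a co-receptor of the family, gave -1.47, -2.97 and -3.72 and was 4.76-fold higher on iPS-OSH than on ESC. Inhba, Inhbb and Tgfbr3 thus lay nearer to MEF on iPS-OSH than on iPS-J or ESC. Gdf1, a ligand that pairs with Nodal, gave 0.53, 1.61 and 2.16 from its brighter probe and 1.79, 1.77 and 1.92 from the other. Acvr1c (Alk7), another type I receptor, was not well above background on any array.

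Of the processing and extracellular control genes, 6 of 7 were on the array. With MEF, 5 could be compared on iPS-OSH, 5 on iPS-J and 6 on ESC. Relative to MEF, 1 was lower on iPS-OSH, 1 was higher and 2 lower on iPS-J, and 1 was higher and 3 lower on ESC. Furin, a convertase that cleaves the Nodal precursor, had differences from MEF of -2.17 on iPS-OSH, -2.40 on iPS-J and -3.93 on ESC. Fst (follistatin), which binds activin, gave -0.73 for iPS-OSH, -3.50 for iPS-J and -3.85 for ESC relative to MEF, and was 8.68-fold higher on iPS-OSH than on ESC. Pcsk6 (PACE4), another such convertase, gave 0.62, 1.44 and 0.40, and Nomo1, known as a Nodal modulator in zebrafish, gave -0.67, -0.85 and -1.07. Cer1, a secreted Nodal antagonist, was well above background on ESC only among the arrays, at 102, so it was higher on ESC than on MEF by at least 2.01.

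Of the 6 transducers, 2 were lower on iPS-OSH, 1 was higher and 1 lower on iPS-J, and 2 were lower on ESC, relative to MEF. Smad3 gave -1.16 on iPS-OSH, -1.97 on iPS-J and -2.35 on ESC from its brighter probe. The other Smad3 probe gave 0.29, -1.05 and -1.33. Smad2 gave -0.54, -0.63 and -1.13. Smad4, the partner that both share, gave -1.06, -0.65 and -0.92 from its brighter probe and -0.97, -1.81 and -0.33 from the other. Trim33, a ubiquitin ligase that binds Smad proteins, was the transducer higher on iPS-J than on MEF, by 2.83-fold, with differences of 0.31 on iPS-OSH and 0.92 on ESC.

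Of the 11 intracellular inhibitors, 2 were lower than on MEF on each pluripotent array, and 1 was higher on iPS-OSH, 2 on iPS-J and none on ESC. Of all genes, 24.1%, 23.7% and 16.8% were lower than on MEF on iPS-OSH, iPS-J and ESC, and 12.5%, 16.6% and 21.8% higher. The inhibitors lower than on MEF were Ldlrad4 and Pmepa1, which hold back Smad2 and Smad3 activation and are induced by transforming growth factor beta. Pmepa1 read 6096 on iPS-OSH, 1216 on iPS-J and 807 on ESC, against 14159 on MEF. Both genes were higher on iPS-OSH than on ESC, Ldlrad4 by 3.16 and Pmepa1 by 2.65. The fibroblast markers above were also higher there, and the part of fibroblast cells in the Ldlrad4 and Pmepa1 differences was not tested. The inhibitors higher than on MEF were the corepressors Tgif2, which gave 1.14, 1.17 and 0.52, and Skil, which gave 0.03, 1.12 and 0.61, both from the brighter of their probes. The other Tgif2 probe gave 0.83, 0.82 and 1.39, past 2-fold on ESC only. The other Skil probe gave 0.76, 0.84 and 0.12, so the counts of higher inhibitors depend on the probe.

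Of the 13 known targets, 12 could be compared with MEF on iPS-OSH, 10 on iPS-J and 12 on ESC. Of these, 4, 4 and 5 were higher and 2, 4 and 2 lower, bounds included. Pmepa1, Skil, Smad7 and Cer1 are on this list and are also counted in a list above. Otx2, a homeobox gene of the epiblast, read 11523 on iPS-OSH, 12195 on iPS-J and 17039 on ESC, against 513 on MEF, with differences of 4.64, 5.11 and 5.47. Foxa2, an endoderm transcription factor, read 147 on iPS-OSH, 1797 on iPS-J and 336 on ESC, against 16.9 on MEF, where it was not well above background. Brachyury (T), a mesoderm gene, was well above background on iPS-OSH only, at 165, and not on iPS-J (47.1), ESC or MEF. Fgf5, a growth factor of the primed epiblast, gave -1.60, -1.86 and -1.84 on iPS-OSH, iPS-J and ESC relative to MEF. Eomes, a T-box factor of the primitive streak, gave 1.19, 2.04 and 1.53 from its brighter probe, and its other probe went the opposite way with -1.56, -0.72 and -1.52. Gsc (goosecoid) gave -0.84, -1.82 and -0.29, and Lhx1, a LIM homeobox gene, gave -0.71, -1.12 and -0.01 from its brighter probe, while its other probe was higher on iPS-J and ESC than on MEF.

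**Figure D4:**
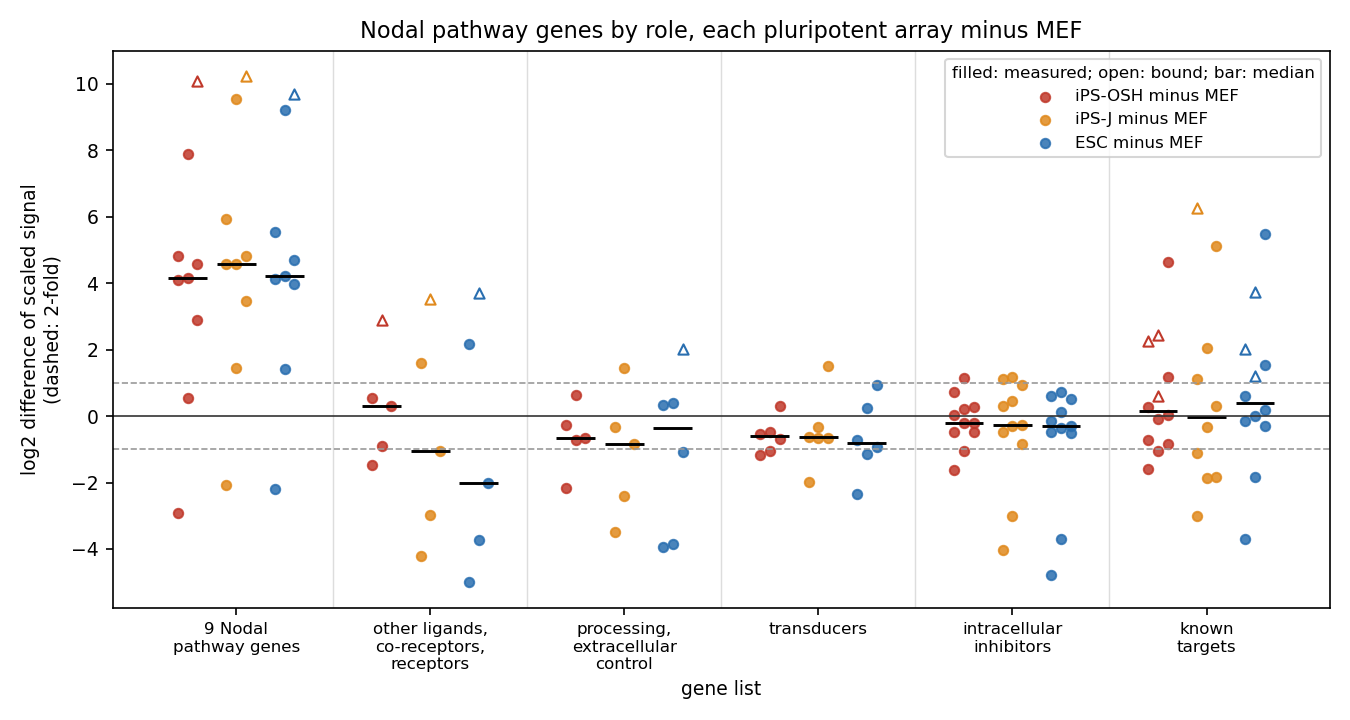
Log2 difference of scaled signal of each pluripotent array minus MEF for the 9 genes and for the other pathway genes by role, 1 point for each gene, open triangles for lower bounds and a bar for the median. The medians of the 9 genes are 4.16, 4.59 and 4.22, and those of the other lists lie between -2.01 and 0.40.

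The genes whose pattern over the 4 arrays was nearest to each of the 9 were taken by Euclidean distance between mean-centred scaled log2 signals, over 14989 genes well above background on all arrays and, for Gdf3, over 342 genes well above background on the pluripotent arrays only. The MEF signals of Gdf3 and of those 342 genes were raised to at least the 34.0 used for bounds, so their distances do not measure how far each lay below it. Nodal was nearest to Rinl (0.12), Etv2 and Nup62cl, and Acvr2b to Susd4 (0.05), Ddx43 and Igfbp2. Lefty1 was nearest to Fcho1 (0.22), Zfp985 and Klk1b3, and Lefty2 to Npl (0.27), Bmp7 and Grtp1. Foxh1 was nearest to Kif26a (0.15), Ccdc160 and Jarid2. Tdgf1 was nearest to Tcf15 (0.66), L1td1 and Ly6g6e, and Gdf3 to Trap1a (0.52), Rpl10l and Rbmxl2. Acvr1b was nearest to Xpo1 (0.08), Mdfi and Capn5, and Acvr2a to Slc18a2 (0.20), Col8a2 and Tmtc2. Between the 9 genes the nearest were Nodal and Foxh1 (0.72), Acvr2b and Foxh1 (0.73) and Nodal and Acvr2b (0.88), and the farthest apart were Gdf3, at that raised MEF signal, and Acvr2a (10.75).

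RefSeq promoter sequences of the GRCm38.p6 build were given for 5 of the 9 genes. The letters AATNCACA (a Foxh1 motif), ATGCAAAT (the octamer of Pou5f1), CATTGT (a Sox motif) and CAGACA (a Smad motif), searched on both strands of 250 bases before to 50 after the start, occurred in none of the 5. Over all 32851 promoters of that length they occurred in 3.60%, 1.74%, 12.6% and 21.0%. The upstream 250 bases differed in composition, with 3 CG dinucleotides for Nodal, 7 for Tdgf1, 42 for Acvr1b, 49 for Acvr2a and 24 for Acvr2b, beside a median of 6.00. The 3 receptors, of which Acvr2a was lower and Acvr2b higher on the pluripotent arrays, had the CG-rich promoters, and the sequences of Nodal (chr10:61417722-61417971, plus strand), Tdgf1 (chr9:110946159-110946408, minus strand) and Acvr2b (chr9:119401928-119402177, plus strand) show the contrast among genes that were all higher on the pluripotent arrays, with CG in capitals.
Nodal: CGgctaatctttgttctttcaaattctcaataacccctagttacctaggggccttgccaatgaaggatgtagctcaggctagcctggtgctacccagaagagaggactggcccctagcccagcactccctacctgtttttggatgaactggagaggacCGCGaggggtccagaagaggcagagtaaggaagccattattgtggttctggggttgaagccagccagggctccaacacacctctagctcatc
Tdgf1: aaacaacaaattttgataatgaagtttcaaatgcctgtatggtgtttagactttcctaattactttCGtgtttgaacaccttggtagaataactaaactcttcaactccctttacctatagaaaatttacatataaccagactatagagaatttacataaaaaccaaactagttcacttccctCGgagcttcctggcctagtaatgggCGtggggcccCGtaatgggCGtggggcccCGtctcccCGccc
Acvr2b: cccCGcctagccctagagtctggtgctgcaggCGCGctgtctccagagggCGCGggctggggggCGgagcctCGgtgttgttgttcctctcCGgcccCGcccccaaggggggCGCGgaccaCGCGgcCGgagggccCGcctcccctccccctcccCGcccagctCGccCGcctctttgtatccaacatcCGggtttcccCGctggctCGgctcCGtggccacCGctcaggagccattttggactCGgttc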

How the data were processed

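The deposited scanner output of 4 1-colour arrays holds an intensity for each spot, background-subtracted by the scanner software (Agilent Feature Extraction 10.5.1.1) per the file headers. The multiplicative detrend entered the processed signal on iPS-OSH, iPS-J and ESC but not on MEF, which was found by setting the deposited columns against each other. The deposited value table held the same intensity on a linear scale to 3 significant digits, with a largest deviation of 0.497%.

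Each array's log2 processed signal was reduced by its 75th percentile over non-control spots without feature or background outlier marks. Probe values left out spots with a feature outlier mark, and those with a background outlier mark were kept, 4 of them among the 9 genes. Of 55681 probes, 26412 were named by accession, 3987 by symbol and 825 by synonym from RefSeq, and 24443 kept the name in the file. A gene is its brightest probe, and genes were compared where 1 or both arrays of the pair had it well above background. Where only 1 had, the difference is a bound against the higher of the dim array's lowest signal of a probe with over 50% of its spots well above background and the dim probe's own signal. The software's own error of the 9 genes' spots well above background was 10.0% to 17.4%, and the number of arrays limits the precision.

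The 9 genes, the pathway lists and the marker lists were chosen with earlier results of these data known. All 9 genes are named with every probe, with up to 4 genes of each pathway list per comparison with the largest differences past 2-fold, up to 2 of each marker list, and the 3 genes nearest to each of the 9. One gene was left out of the target list and is not reported here. A gene so named is given on all pluripotent arrays, and Acvr1c was named after its values were seen. The promoter CG count and the purine run were chosen after the sequences were seen. The counting code was run on arrays simulated from the MEF array, with less noise than the spot noise here. That run checks the code and not the precision of these data. Alternatives were 11 chosen with the design and 4 added after the values were seen, with limma 3.58.1 in R 4.3.3 for normexp (offset 50) and quantile normalization. Python 3.11.15, numpy 2.4.6 and pandas 2.3.3 were used.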

Additional observations from a re-analysis of the deposited data

How the results depend on the processing

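Of 747 recomputed differences of the 9 genes over 11 planned and 4 added alternatives, 657 moved by no more than the spot noise and 90 by more. All 414 recomputed from differences of 2-fold or more kept their sign, and most of them were differences from MEF. The totals include settings that could hardly move a measured difference. These were the deposited value table, no filter on dim probes, detection on both arrays, and detection above negative controls. Of 180 recomputed counts of genes past 2-fold, 171 stayed within 1.5 times. For iPS-OSH minus ESC the count of lower genes was 2, and it was 4 with the percentile over probes well above background on all arrays, 4 with quantile normalization, 0 with spike-in scaling and 0 at a 4-fold threshold, and the count of higher genes was 0, and 1 with spike-in scaling. For iPS-J minus ESC the count of lower genes was 0, and 1 with quantile normalization and 1 without the multiplicative detrend, and that of higher genes was 0, and 1 with spike-in scaling. For iPS-OSH minus iPS-J the count of lower genes was 2, and 0 at a 4-fold threshold. The cause of these changes was not tested. Over all genes, iPS-OSH minus ESC had 2641 higher and 8184 lower, against 4057 and 4543 with quantile normalization and 4748 and 4862 with spike-in scaling. Over all genes, iPS-J minus ESC had 1767 higher and 6764 lower, against 2766 and 3154 with quantile normalization and 2506 and 5603 with spike-in scaling. Spike-in scaling also gave 3701 higher and 10535 lower for iPS-J minus MEF (5104 and 7252 as reported), 4300 and 8541 for ESC minus MEF (6852 and 5268), and 3315 and 1515 for iPS-OSH minus iPS-J (2210 and 2329). Without spots of a background outlier mark, Foxh1 dropped out of every comparison and Acvr1b was read from its other probe. No paired analysis was possible because each group held 1 array.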
